A study of Mus musculus with 21 samples.

Results

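The insulin-like growth factor (IGF) genes were followed across sorted cells of mouse medulloblastoma, a tumour of the cerebellum. The 10 genes were the ligands Igf1 and Igf2, the receptors Igf1r, Igf2r and Insr, the binding proteins Igfbp2, Igfbp3, Igfbp4 and Igfbp5, and the RNA-binding protein Igf2bp1. Every probe set of the array that the platform annotation assigns to one of these symbols alone was taken, which gave 31 of 45101 probe sets, for 10 of 18194 gene symbols. A probe set is a group of short probes that together measure a transcript. A filter on dim signals, at a mean of about 15.5, passed 23 of the 31 probe sets, from 9 genes. The 8 that did not pass were all 4 of Igf2bp1, 2 of Insr, 1 of Igf1 and 1 of Igfbp4.

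All 21 arrays hold RNA of cerebellar tumour cells sorted by CD15, a carbohydrate on the surface of progenitor cells. The titles name 4 groups. The tumours called conventional Patched medulloblastomas gave 6 CD15 positive and 6 CD15 negative samples, and the tumours called math-1GFP (written Math1-GFP here) gave 4 CD15 positive and 5 CD15 negative samples. The series carries the title Loss of PATCHED, so every group, the CD15 negative cells included, comes from tumours that arose with Patched (Ptch1) lost. Ptch1 keeps Hedgehog signalling in check at the cell surface, and Math1 (Atoh1) drives the fate of granule neuron precursors. The sources used here give no strain, age, promoter of the GFP reporter or Ptch1 allele, and no sample of normal cerebellum was analysed here. In the descriptions, the 9 Math1-GFP samples are also said to be conventional, and groups follow the titles. Every conventional title ends in le1 and every Math1-GFP title in le2, so whatever that suffix marks and the tumour model cannot be told apart. Nothing in the titles ties the samples of a group to separate animals, so a p-value here reflects the spread among the samples at hand, part of which may be technical.

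IGF1 and IGF2 are secreted growth factors that act through the receptor tyrosine kinase IGF1R and, with the related insulin receptor INSR, switch on the PI3 kinase, AKT and mTOR cascade. IGF2R takes IGF2 into the cell for breakdown and so lowers its level, while the binding proteins hold the ligands outside the cell and set how much reaches the receptors. In the cerebellum IGF signalling supports the survival and division of granule neuron precursors, and Igf2, an imprinted gene, has been tied to tumour growth in Patched mice. IGF2BP1 binds Igf2 messenger RNA and other fetal transcripts.

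The start regions of Igf2 are shown first because this gene gave the widest spread of all members. RefSeq (GRCm38.p6) lists 4 start regions of Igf2 on the minus strand of chromosome 7, each taken from 250 bases before to 50 bases after the start. The pair that hold a GC box (GGGCGG on either strand, capitals), the binding motif of Sp factors, are printed 5′ to 3′ in the direction of transcription.

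Igf2, chr7:142658755-142659054, minus strand: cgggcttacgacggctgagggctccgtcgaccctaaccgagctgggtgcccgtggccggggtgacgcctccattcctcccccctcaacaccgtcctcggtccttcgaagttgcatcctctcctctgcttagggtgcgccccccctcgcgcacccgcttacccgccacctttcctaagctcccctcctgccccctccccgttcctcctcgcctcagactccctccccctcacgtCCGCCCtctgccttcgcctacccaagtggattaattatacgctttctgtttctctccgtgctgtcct

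Igf2, chr7:142657447-142657746, minus strand: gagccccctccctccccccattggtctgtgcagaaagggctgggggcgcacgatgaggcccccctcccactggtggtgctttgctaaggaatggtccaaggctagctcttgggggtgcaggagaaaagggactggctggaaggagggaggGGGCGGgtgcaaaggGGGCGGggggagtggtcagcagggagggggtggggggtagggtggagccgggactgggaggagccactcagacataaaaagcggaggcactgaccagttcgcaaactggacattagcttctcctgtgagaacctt

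The first holds 1 GC box and 24 CG dinucleotides, and the second 2 GC boxes and 7 CG dinucleotides. The windows at chr7:142666767-142667066 and chr7:142661222-142661521 hold no GC box and have 2 and 14 CG dinucleotides. Over all members, 12 windows of 8 genes were listed, and 5 of the 12 hold a GC box, against 35.7% of all 32851 windows in the table. The Gli motif GACCACCCA was found on neither strand of any of the 12 windows, and 0.253% of all windows hold it. The sequence TATAAA, read on the gene's strand, is in 1 of the 12 windows, that of Igfbp4, against 8.32% of all windows. A match describes these letters only. The sources used here do not place the probe sets on these alternative starts, so a signal cannot be assigned to a start region.

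Known genes were read before the members, first as ranges over all arrays, which cannot check a label of CD15 or model. Of 10 markers of the granule neuron lineage, 9 were on the array and all 9 passed the filter, with summed signals between 14460 and 32172. Signals of the Hedgehog target Gli1 lay between 226 and 822, those of Atoh1 between 343 and 2371, and those of Ptch1 between 620.1 and 4258. Where the Ptch1 probes lie relative to a deleted part is not given, so its signal checks nothing about the allele. Signals are on the deposited linear scale, with each array scaled to a common trimmed mean of 150.0, and the number of arrays limits the precision. Fold changes are differences of log2(signal + 32) with standard errors (SE) from limma, with Benjamini-Hochberg adjustment over 27022 probe sets and a threshold of 0.05. Among conventional tumours, the arrays numbered 2 to 5 and the remainder (the unnumbered arrays and number 6) form separate sets, with a mean correlation over tested probe sets of 0.962 within and 0.937 between them. This split was drawn from the same data, so values within each set show how far a result rests on one of them and are no independent test. Math1-GFP arrays 1 and 2 had the lowest mean correlation with the others of their model, 0.938 and 0.946 against 0.957 to 0.966. Each array holds RNA of many cells, so fewer cells of a type and less RNA per cell cannot be told apart.

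Igf2 was the member that differed most between samples, and it differed far more between sample numbers than between the CD15 fractions of a number. With the brighter probe set (1448152_at), the conventional CD15 positive arrays numbered 2, 3 and 4 read 11031, 6758 and 7624, and the CD15 negative arrays of the same numbers 6046, 6053 and 7310.5. Number 5 read 949 in CD15 positive and 427 in CD15 negative cells. Number 6 read 44.2 and 40.2, and the arrays without a number read 77.5 and 49.4. High and low samples were found in both fractions, and the groups overlapped.

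The Math1-GFP arrays also spread widely. In CD15 positive cells Igf2 read 2543, 760.5, 73.3 and 309.6 on arrays 1, 5, 7 and 9. In CD15 negative cells it read 1796, 105, 271, 49.4 and 188 on arrays 2, 4, 6, 8 and 10. No Math1-GFP array came near the levels of conventional numbers 2 to 4, and the Math1-GFP groups overlapped each other and the lower conventional arrays. Titles of the Math1-GFP groups share no number, so no pairing can be read there.

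**Figure D1:**
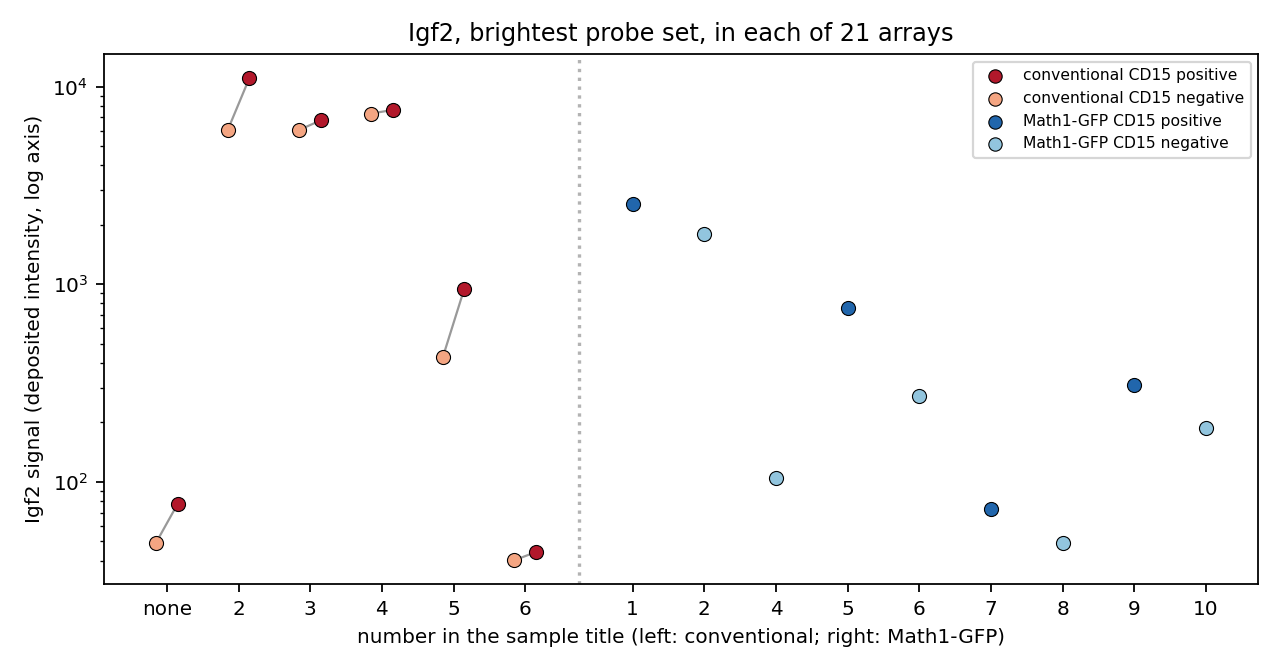
Igf2 signal of probe set 1448152_at on a log axis for each of the 21 arrays, by the number in the title, with conventional tumours left and Math1-GFP right. Grey lines join the CD15 positive and negative arrays of a conventional number, and also the arrays without a number, which no label pairs. Each line is short beside the distance between numbers, which run from about 40.2 to 11031.

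Over the 5 numbered conventional pairs, the largest difference within a pair was 1.10 on the log2 scale (2.14-fold), while the means of the pairs ranged over 6.79 (111-fold). CD15 positive cells were the higher in 5 of 5 pairs, and also among the arrays without a number, by 0.06 to 1.10 within the pairs. The CD15 difference in conventional tumours was 0.45 ± 1.40 (SE, n = 6 and 6, limma adjusted p = 0.92), and with the number as a block 0.45 ± 0.77 (adjusted p = 0.80). In Math1-GFP tumours it was 0.96 ± 1.62 (n = 4 and 5, limma adjusted p = 0.97). Neither passed the test. The SE of the blocked fit also pools the spread of the Math1-GFP arrays, which are not paired. The 5 pair differences alone had an SD of 0.49 around their mean of 0.45. The second probe set of Igf2 (1415931_at), far dimmer, was also highest on numbers 2, 3 and 4, in another order among them. It read 185, 192 and 153 in CD15 positive and 174, 145 and 119 in CD15 negative cells of numbers 2, 3 and 4, and at most 57.3 on any Math1-GFP array.

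Between models, Igf2 was 1.57 ± 1.07 lower in Math1-GFP by the point estimate (-1.57, limma adjusted p = 0.25), which did not pass. With array weights it was -2.99 (adjusted p = 0.0086) and with the number as a fixed block -2.28 (adjusted p = 0.0035), and both passed. For models, here and below, the fixed block takes the differences between conventional samples out of the spread against which the models are compared. Its calls between models are therefore too lenient. The second probe set gave -0.96 ± 0.39 (adjusted p = 0.055). It passed with array weights (-1.47, adjusted p = 0.0010), with the fixed block (-1.20, adjusted p = 4.6e-05) and on the numbered arrays without it (-1.20, adjusted p = 0.016). It also passed in 7 of the 21 fits that each left out 1 array, those without either unnumbered array, CD15 negative 5, CD15 positive or negative 6, or Math1-GFP CD15 positive 1 or CD15 negative 2, with adjusted p of at least 0.026. These values depended on which conventional arrays were used. Against conventional numbers 2 to 5 alone, the brighter probe set (1448152_at) stood at -3.44 (adjusted p = 0.0012) and the second at -1.60 (adjusted p = 4.1e-04). Against the unnumbered arrays and number 6 alone, the brighter stood at 2.16 (adjusted p = 0.060), and the second did not pass either. Markers of meninges and choroid plexus, tissues known for Igf2, moved with Igf2 between the sets of conventional arrays but not in the order of arrays within them. All 10 were on the array, 7 passed the filter (Kl, Kcne2 and Slc6a13 did not), and none is listed at 0. Their summed signal was 766, 754, 1333 and 706 on the unnumbered arrays and number 6, below all 8 arrays of numbers 2 to 5, at 2056 to 12884. Within numbers 2 to 5 it was 12884 and 12473 on conventional CD15 positive arrays 2 and 5, but 2750 and 2056 on arrays 3 and 4. It was 4720 on Math1-GFP CD15 negative array 8, where Igf2 read 49.4. By group the sums ranged from 766 to 12884 and 706 to 6092 in conventional CD15 positive and negative cells, and from 1631 to 3579 and 477 to 4720 in the Math1-GFP groups. The part of these tissues in the Igf2 signal was not tested.

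The genes most like Igf2 over the 21 arrays were found by Pearson correlation of log2 values after removal of group means, as a description only. Smarcd3, a chromatin remodelling subunit, came first (r = 0.98), then the fibroblast growth factor receptor Fgfr4 (0.96), the Wnt-responsive transcription factor Tcf7l2 (0.96), the RNA-binding protein Rbms3 (0.96) and Prag1 (0.95). The second Igf2 probe set reached 0.95. The arrays share tumours and scaling, so these points are not independent. Fgfr4, for example, read 443, 646 and 525 on conventional CD15 positive arrays 2, 3 and 4 and 19.2 on array 6.

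Igf1, the ligand that the liver also releases as a hormone, was dim in most samples and raised in a few. The brightest probe set (1437401_at) read 15.1, 39.1 and 133 (lowest, median and highest) in conventional CD15 positive cells and 14.3, 21.2 and 66.6 in CD15 negative cells. In Math1-GFP CD15 positive cells it read 18.1, 14.5, 20 and 18.2 on arrays 1, 5, 7 and 9. In CD15 negative cells it read 17.5, 21.5, 7.11, 18.6 and 14.6 on arrays 2, 4, 6, 8 and 10. The highest conventional arrays were numbers 4 and 2, in both fractions, and the lower conventional arrays overlapped the Math1-GFP groups.

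The CD15 difference of Igf1 in conventional tumours was 0.39 ± 0.25 (limma adjusted p = 0.42) with 1437401_at and did not pass. The probe set 1452014_a_at read 1.06, 53.6 and 164 in CD15 positive and 2.19, 9.67 and 41.5 in CD15 negative cells (lowest, median and highest). Its difference was 0.78 ± 0.33 (limma adjusted p = 0.19), and CD15 positive was the higher in 4 of 5 pairs. With the number as a block it passed, at 0.71 ± 0.20 (adjusted p = 0.047), in a fit that called 6.61% of all probe sets. It also passed with the number as a random block, at 0.75 ± 0.23 (adjusted p = 0.030), where 17.1% of all probe sets were called. In Math1-GFP tumours the 3 Igf1 probe sets differed by 0.06 to 0.12, with SE of 0.29 to 0.38, and none passed.

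Between models, 2 of the 3 Igf1 probe sets fell in Math1-GFP. They fell by 0.52 ± 0.19 (1437401_at, limma adjusted p = 0.033) and by 0.78 ± 0.25 (1434413_at, adjusted p = 0.017), while the third (1452014_a_at) was at -0.39 ± 0.25 (adjusted p = 0.22), and passed with the number as a fixed block (-0.43, adjusted p = 0.024). With 1434413_at the conventional arrays read 5.43, 23.7 and 144 in CD15 positive and 0.692, 19.7 and 85.9 in CD15 negative cells. The Math1-GFP arrays read 3.00, 0.961, 16.4 and 2.77 in CD15 positive and 1.04, 4.27, 1.15, 1.41 and 12.3 in CD15 negative cells. The ranges of the models overlapped. On the log2 scale, both Math1-GFP means of 1434413_at, 5.22 and 5.16 (CD15 positive first), lay below the filter level of 5.57. This probe set passed the filter only through the conventional groups, at 6.10 and 5.85. Most of its Math1-GFP signals were near the floor, so the size of its fall cannot be read closely. Against numbers 2 to 5 alone the differences were -0.71 and -1.09 (adjusted p = 0.0076 and 0.0018), and against the unnumbered arrays and number 6 alone -0.14 and -0.17 (adjusted p = 0.39 and 0.38). The call of 1437401_at was lost in 5 of the 21 fits that each left out 1 array, those without conventional CD15 positive 2, CD15 negative 2 or 4, Math1-GFP CD15 positive 5 or CD15 negative 6, with adjusted p of at most 0.058. It was also lost with the larger pseudocount (-0.22, adjusted p = 0.053), with the mean of the Igf1 probe sets (-0.56, adjusted p = 0.050), with a block for the conventional sets (-0.43, adjusted p = 0.054) and without Math1-GFP arrays 1 and 2 (-0.53, adjusted p = 0.059).

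The highest sums of microglia markers came with the highest Igf1, but the order differed on other arrays. Of 13 markers of microglia and macrophages, all 13 were on the array, 12 passed the filter (Trem2 did not) and none is listed at 0. Their summed signal ranged from 1002 to 15100 in conventional CD15 positive cells and from 438 to 5493 in CD15 negative cells. In Math1-GFP it ranged from 518 to 2485 and from 328 to 814. The arrays with the most Igf1, conventional CD15 positive 4 and 2, also had the highest marker sums, 15100 and 9975. The genes most like Igf1 were the lysosomal protease Ctsd (r = 0.91), the complement receptor C3ar1 (0.90), Aif1 (0.88), the complement subunit C1qc (0.88) and Fcrls (0.88), most of them known from microglia. Aif1 read 341 and 439 on CD15 positive arrays 2 and 4 and at most 28.4 on any Math1-GFP array. The part of these cells in the Igf1 differences was not tested.

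**Figure D2:**
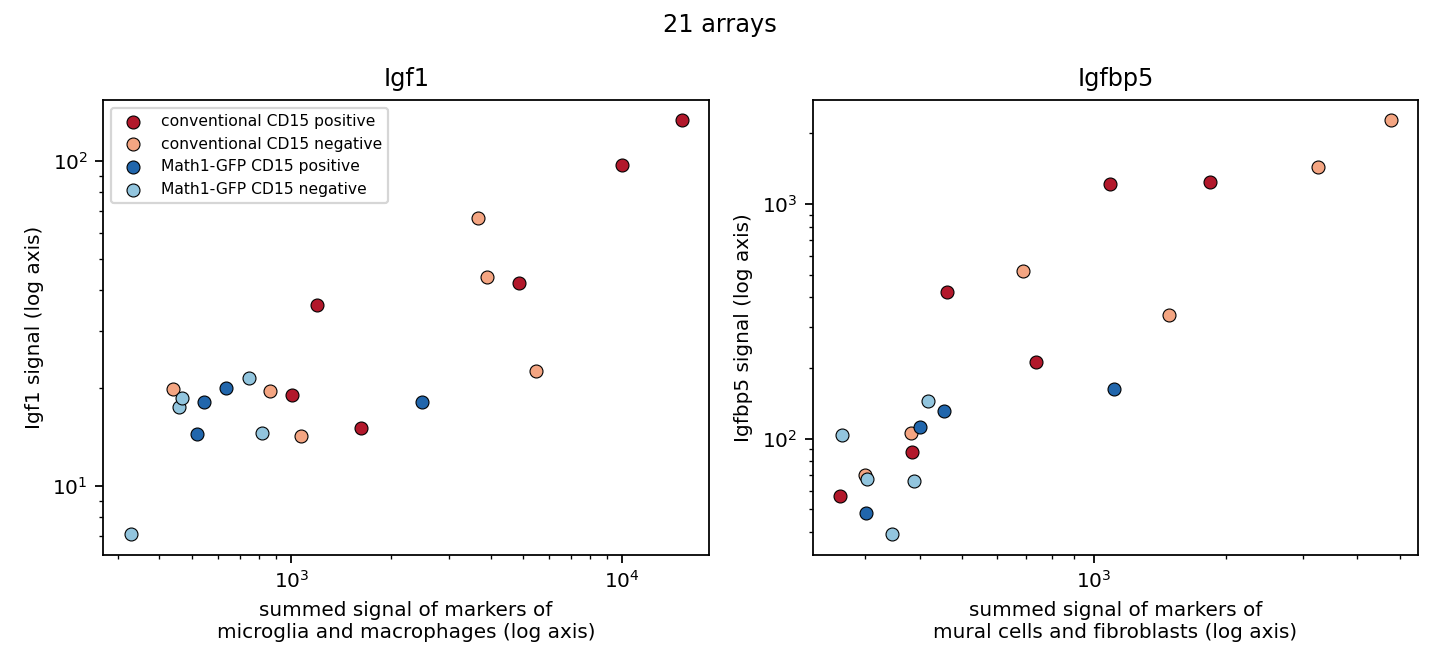
Igf1 signal (1437401_at) against the summed signal of microglia and macrophage markers, left, and Igfbp5 signal (1452114_s_at) against the summed signal of mural cell and fibroblast markers, right, both on log axes, 1 point per array. The arrays with the highest Igf1 and Igfbp5, all from conventional tumours, lie at high marker sums (9975 and 15100 for the 2 highest Igf1 arrays, 3246 and 4768 for the 2 highest Igfbp5 arrays).

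Igf1r, the receptor that carries the growth signal of both ligands, was higher in Math1-GFP tumours with 3 of its 5 probe sets. The brightest, 1452982_at, read 91.4, 179 and 359.6 (lowest, median and highest) in conventional CD15 positive and 171, 204 and 330.3 in CD15 negative cells. In Math1-GFP CD15 positive cells it read 381, 429, 286 and 355 on arrays 1, 5, 7 and 9. In CD15 negative cells it read 441, 332, 355, 302 and 232 on arrays 2, 4, 6, 8 and 10. The rise was 0.70 ± 0.19 (limma adjusted p = 0.0048), and the conventional arrays without a number, at 359.6 and 330.3, overlapped the Math1-GFP range.

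The probe set 1426565_at of Igf1r rose by 0.87 ± 0.18 (limma adjusted p = 6.5e-04). It read 56.8, 99.1 and 209 in conventional CD15 positive and 49.8, 93.1 and 148 in CD15 negative cells. In Math1-GFP it read 194, 256, 144 and 250.2 in CD15 positive and 271, 189.7, 175, 206 and 138 in CD15 negative cells. In each conventional fraction the lowest arrays were numbers 2, 3 and 4, at 64.7, 57.6 and 56.8 in CD15 positive and 86.3, 64.6 and 49.8 in CD15 negative cells. The dim probe set 1446303_at rose by 0.73 ± 0.23 (adjusted p = 0.013). It read 1.98, 33.0 and 77.6 in conventional CD15 positive and 11.8, 22.9 and 50.2 in CD15 negative cells. In Math1-GFP it read 122, 96.2, 11.3 and 74.2 in CD15 positive and 98.9, 71.8, 88.0, 39.9 and 52.1 in CD15 negative cells, lowest on array 7. The remaining probe sets of Igf1r stood at 0.47 ± 0.19 (1428967_at, adjusted p = 0.054) and 0.01 ± 0.13 (1452108_at, adjusted p = 0.95). The first of these passed with a filter at the 60th percentile (0.47, adjusted p = 0.049), with array weights (0.50, adjusted p = 0.022) and on the numbered arrays with and without the fixed block (0.54, adjusted p = 0.0079 and 0.035). It also passed in 6 of the 21 fits that each left out 1 array, those without the unnumbered CD15 positive array, CD15 positive or negative 5, CD15 positive 6, Math1-GFP CD15 positive 7 or CD15 negative 8, with adjusted p of at least 0.016.

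The Igf1r differences depended on the conventional arrays used. Against numbers 2 to 5 alone the 3 probe sets were 0.93, 1.11 and 1.00 higher in Math1-GFP (adjusted p = 1.2e-04, 2.4e-05 and 0.0013). Against the unnumbered arrays and number 6 alone they were 0.25, 0.39 and 0.18 higher, and none passed (adjusted p = 0.31, 0.13 and 0.65). Without the pair of Math1-GFP arrays of low correlation, 1 and 2, 1446303_at was at 0.57 (adjusted p = 0.065). Within tumours, no Igf1r probe set passed in the CD15 comparison, with differences of -0.35 to 0.12 in conventional and -0.06 to 0.16 in Math1-GFP cells. The genes most like Igf1r were Slc6a15 (r = 0.88), Stk40 (0.87), Ggt6 (0.85), Strbp (0.85) and Cadm3 (0.85).

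Igf2r, the receptor that clears IGF2, passed no comparison, and its ranges overlapped in all 4 groups. Its brighter probe set (1424111_at) read 35.1, 55.1 and 65.8 in conventional CD15 positive and 29.4, 68.0 and 80.5 in CD15 negative cells. In Math1-GFP it read 68.0, 78.6, 16.9 and 28.5 in CD15 positive and 41.5, 60.8, 76.0, 32.4 and 45.1 in CD15 negative cells. The model difference was -0.16 with a 95% interval of -0.46 to 0.14 (limma adjusted p = 0.39), and 0.16 with an interval of -0.14 to 0.46 for 1424112_at. The CD15 difference in conventional tumours was -0.13 (interval -0.52 to 0.27, adjusted p = 0.79).

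Insr, the insulin receptor, read lower in CD15 positive cells of both models without passing the test. The probe set that passed the filter (1434446_at) read 86.0, 129.7 and 156 in conventional CD15 positive and 123, 157 and 299.8 in CD15 negative cells, and was lower in CD15 positive in 5 of 5 pairs. In Math1-GFP it read 112, 131, 150.2 and 143 in CD15 positive and 113, 229, 186, 195 and 212 in CD15 negative cells, so that array 2 alone of the CD15 negative arrays lay within the CD15 positive range. The differences were -0.35 ± 0.17 (limma adjusted p = 0.27) and -0.38 ± 0.20 (adjusted p = 0.73), and -0.39 with the number as a block (adjusted p = 0.17). Between models it stood at 0.10 ± 0.13 (adjusted p = 0.58). The other 2 probe sets of Insr were below the filter, with signals between 0.974 and 24.3.

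**Figure D3:**
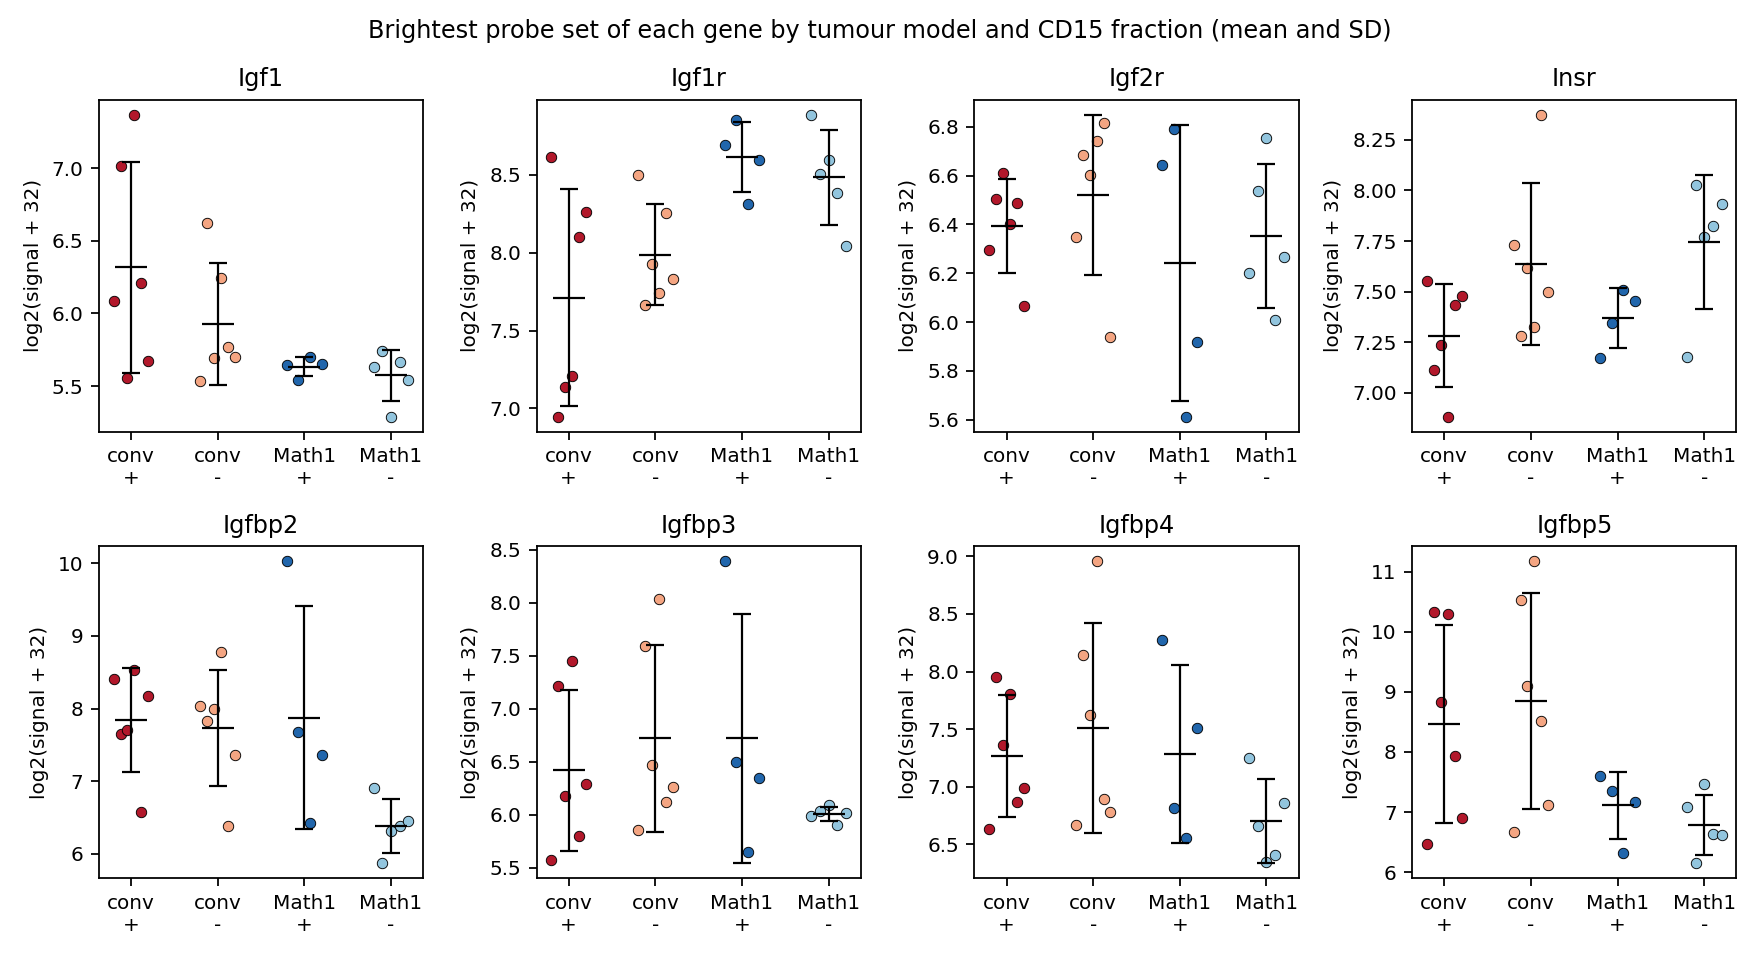
Brightest probe set of 8 members in the 4 groups as log2(signal + 32), with 1 point per array and bars for mean and SD (conv, conventional; Math1, Math1-GFP; + and -, CD15 positive and negative). Ranges of neighbouring groups overlap in every panel, and Igfbp2 of Math1-GFP CD15 positive cells shows a single array at 1012.

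Igfbp5, a binding protein laid down in the matrix, was lower in Math1-GFP tumours with its brighter probe set. That probe set (1452114_s_at) read 57.0, 318 and 1248 in conventional CD15 positive and 69.7, 427 and 2273 in CD15 negative cells. In Math1-GFP it read 163, 131, 48.2 and 112 in CD15 positive and 104, 39.3, 144, 67.1 and 66.1 in CD15 negative cells. All 8 conventional arrays of numbers 2 to 5 lay above every Math1-GFP array, while the unnumbered arrays and number 6, at 57.0 to 106, lay among them. It fell by 1.70 ± 0.54 (limma adjusted p = 0.015).

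Against numbers 2 to 5 alone the Igfbp5 difference was -2.64 (adjusted p = 2.6e-05). Against the unnumbered arrays and number 6 alone the sign turned, to 0.16 (adjusted p = 0.67). The second probe set (1422313_a_at) stood at 0.04 ± 0.22 (adjusted p = 0.89), and the mean of both probe sets at -0.83 (adjusted p = 0.071). Within conventional tumours Igfbp5 was lower in CD15 positive cells in 5 of 5 pairs with either probe set. The differences of -0.39 ± 0.70 and -0.44 ± 0.28 did not pass (adjusted p = 0.83 and 0.43), nor did they with the number as a block (adjusted p = 0.33 and 0.085).

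The highest sums of mural cell and fibroblast markers came with the highest Igfbp5, but the order differed on other arrays. All 10 markers were on the array and passed the filter, and none is listed at 0. Their summed signal ranged from 263 to 1837 and from 299 to 4768 in conventional CD15 positive and negative cells, and from 301 to 1112 and from 266 to 418 in the Math1-GFP groups. The highest Igfbp5 signals, 2273 and 1440.0 in conventional CD15 negative arrays 4 and 2, came with the highest sums, 4768 and 3246. On Math1-GFP CD15 positive array 1, where Igfbp5 read 163, the sum was 1112. It was only 461 and 689 on conventional CD15 positive and negative arrays 3, where Igfbp5 was above every Math1-GFP array. The genes most like Igfbp5 were the mesodermal transcription factor Meox2 (r = 0.95), Cox6b2 (0.95), the laminin subunit Lama2 (0.94), the matrix protein Vtn (0.94) and the proteoglycan Bgn (0.94). Meox2 read 428 and 411 on conventional CD15 positive arrays 2 and 4 and at most 7.78 on any Math1-GFP array. The part of mural cells or fibroblasts in the Igfbp5 differences was not tested.

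Igfbp2, a binding protein of the developing brain, differed most between the CD15 fractions of Math1-GFP tumours, and that difference leaned on a single array. In Math1-GFP CD15 positive cells it read 1012, 173, 53.8 and 133 on arrays 1, 5, 7 and 9. In CD15 negative cells it read 88.6, 26.7, 47.4, 51.4 and 55.4 on arrays 2, 4, 6, 8 and 10. The difference was 1.49 ± 0.54 (limma unadjusted p = 0.011, adjusted p = 0.43), and 0.77 without array 1 (adjusted p = 0.72). In conventional tumours it read 63.2, 217 and 339 in CD15 positive and 51.9, 209 and 409 in CD15 negative cells, a difference of 0.11 ± 0.46 (adjusted p = 0.94). The CD15 difference was 1.38 ± 0.71 larger in Math1-GFP than in conventional tumours, which did not pass (adjusted p = 1.00, unadjusted p = 0.064).

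Between models Igfbp2 stood at -0.66 ± 0.35 (limma adjusted p = 0.14). Without Math1-GFP CD15 positive array 1 it passed, at -1.02 (adjusted p = 0.0071), as it did with array weights (adjusted p = 0.0064). That array was also the highest of its group for Igfbp3, at 304 against 18.1 to 58.2, and for Igfbp4, at 278 against 61.8 to 150.0. Its summed signal of the 9 astrocyte markers, of which 8 passed the filter (Aldh1l1 did not) and none is listed at 0, was 8052 against 2023 to 2193 on the other CD15 positive Math1-GFP arrays. The astrocyte sums ranged from 1080 to 5766 and from 875 to 4112 in conventional CD15 positive and negative cells, and from 897 to 1974 in Math1-GFP CD15 negative cells. Whether astrocyte RNA has a part in the Igfbp2 signal was not tested. The genes most like Igfbp2 were the heme-degrading enzyme Hmox1 (r = 0.82), Dpysl4 (0.80), Triqk (0.79), Zfp385a (0.77) and Tmbim1 (0.75).

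Igfbp3, the main carrier of IGFs in blood, read 15.5, 43.4 and 143 in conventional CD15 positive and 25.8, 50.7 and 231 in CD15 negative cells (1423062_at). In Math1-GFP CD15 positive cells it read 304, 58.2, 18.1 and 49.4, and in CD15 negative cells a narrow 31.5, 33.4, 36.4, 27.9 and 32.7. No Igfbp3 comparison passed: the CD15 differences were -0.30 ± 0.42 in conventional and 0.71 ± 0.49 in Math1-GFP tumours, and the model difference was -0.21 ± 0.32 (limma adjusted p = 0.77, 0.83 and 0.63). Igfbp4, an inhibitor of IGF action that proteases can cleave, read 67.0, 114 and 216 in conventional CD15 positive and 69.7, 126 and 465 in CD15 negative cells (1437405_a_at). In Math1-GFP it read 278, 80.5, 61.8 and 150.0 in CD15 positive and 119.9, 69.4, 49.5, 52.7 and 83.7 in CD15 negative cells. Its model difference was -0.39 ± 0.27 (adjusted p = 0.26), which passed with array weights (-0.66, adjusted p = 0.028) and with the number as a fixed block (-0.54, adjusted p = 0.038), and the 5 Igfbp4 probe sets lay between -0.39 and 0.13. In Math1-GFP the CD15 differences of these probe sets were 0.37 to 0.87, and none passed.

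Igf2bp1 was at the floor of the array. Its 4 probe sets read between 0.409 and 21.9 over all arrays and groups, and no comparison was tested. The medians of its brightest probe set (1418761_at) were 17.1 and 13.4 in conventional CD15 positive and negative cells and 11.1 and 5.84 in the Math1-GFP groups.

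Over the members as a whole, no probe set passed in the CD15 comparison of conventional tumours, in which 5.21% of all probe sets passed (1.85% higher and 3.37% lower). At an unadjusted p under 0.05 there was 1 member of 23, the Igf1 probe set 1452014_a_at, against 5192 of 27022 probe sets, and with the number as a block 1 of 23 passed. In Math1-GFP tumours 0 of 23 passed in the CD15 comparison by limma, 2 at an unadjusted p under 0.05, where 0% of all probe sets passed and 1985 had such a p. In the limma test of whether the CD15 difference depends on the model, 0 of 23 members passed, 0 of them with an unadjusted p under 0.05, where 0% of all probe sets passed and 567 had such a p. The median CD15 difference of the members was -0.09 in conventional and 0.18 in Math1-GFP cells, against -0.03 and -0.01 over all probe sets.

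Between models, 6 of 23 members passed, 3 higher (all Igf1r) and 3 lower (Igf1 and Igfbp5), or 26.1%. Over all probe sets 42.3% passed, 26.9% higher and 15.4% lower, so the share among the IGF genes was below the background. The called probe sets split into 7259 higher and 4159 lower over the whole table, and into 5522 and 4983 after quantile normalization. The members stayed at 3 and 3. The median of the members was -0.11, against 0.09 over all probe sets. Arrays of both fractions of a number entered this comparison as separate samples although they deviate together. With the number as a random block (estimated correlation 0.48) the same 6 probe sets were called, with 37.5% of all probe sets. With the number as a fixed block 11 of 23 passed, with 47.5% of all, but that fit takes the differences between conventional samples out of the spread against which the models are compared. Within the conventional sets, 11 members passed against numbers 2 to 5 alone (background 46.9%) and 1 against the unnumbered arrays and number 6 alone (25.3%). That 1 was the Igfbp4 probe set 1421992_a_at (0.55, limma adjusted p = 0.011), which was not called with all arrays. None of the 6 probe sets called with all arrays passed there.

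**Figure D4:**
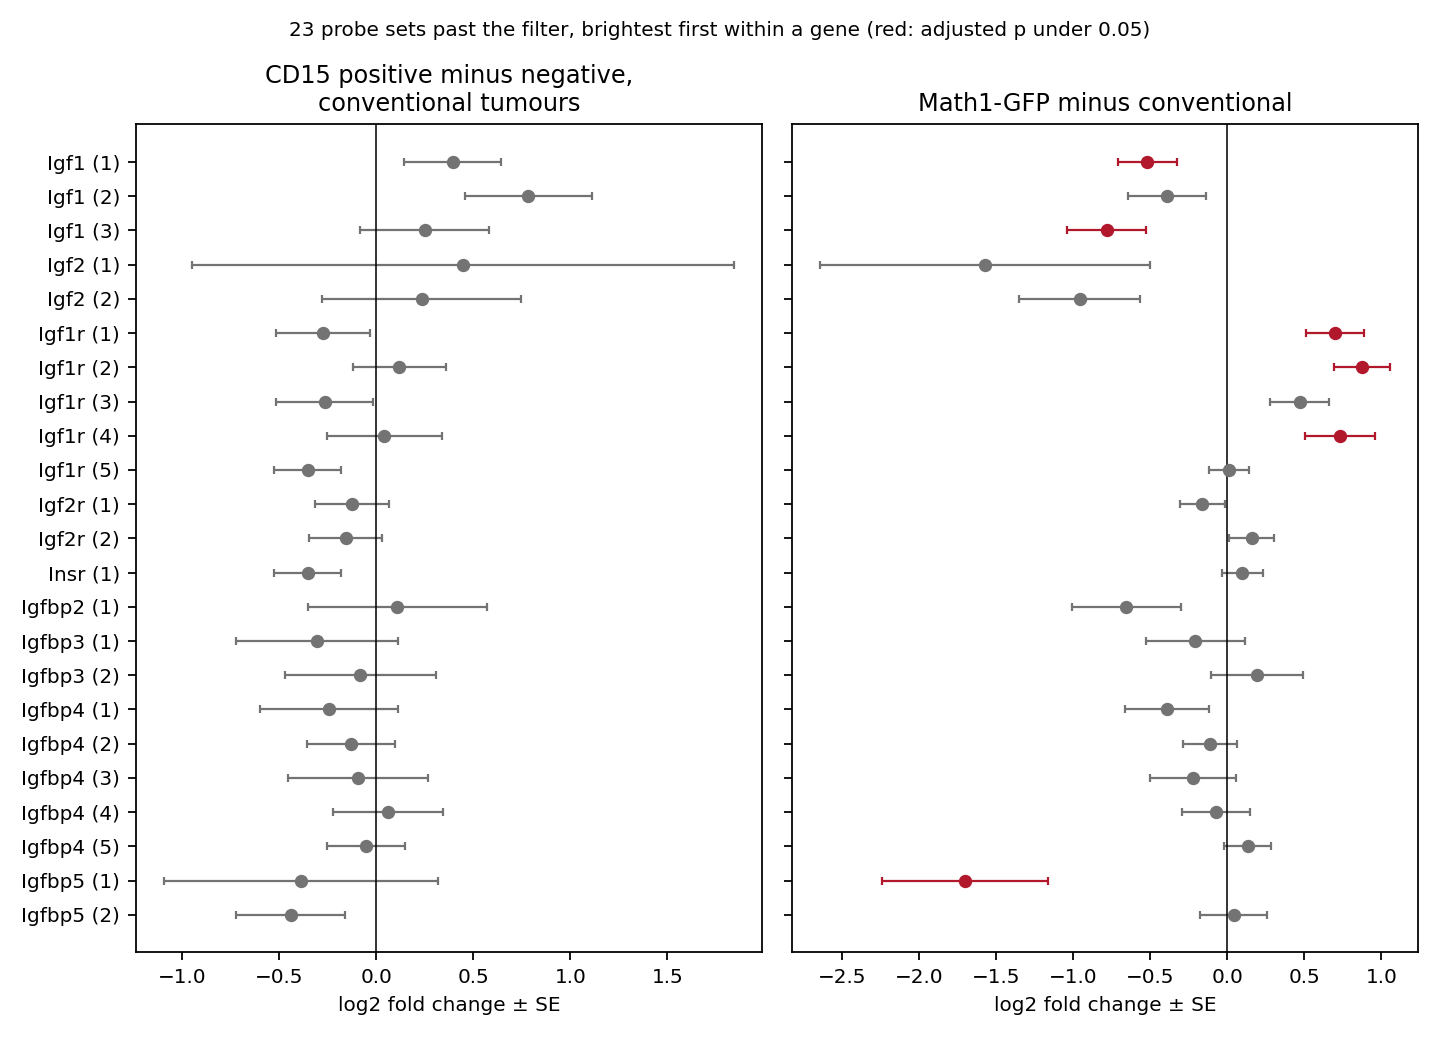
Log2 fold change with SE of the 23 probe sets that passed the filter, for CD15 positive minus negative in conventional tumours (left) and Math1-GFP minus conventional (right), numbered from the brightest within a gene. Red points passed at an adjusted p under 0.05: none on the left, and on the right 3 of Igf1r above 0 (0.70 to 0.87) and 2 of Igf1 and 1 of Igfbp5 below 0 (-0.52 to -1.70).

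Other genes of the pathway were taken from lists. Of the signalling cascade below the receptors, 33 of 37 genes were tested with 78 probe sets, and 6 of these fell in CD15 positive cells of conventional tumours while none rose, or 7.69% against 5.21% of all. The regulatory subunits of PI3 kinase fell, Pik3r3 by 0.95 ± 0.18, Pik3r2 by 0.68 ± 0.15 and Pik3r1 by 1.00 ± 0.23 (limma adjusted p = 0.0035, 0.0089 and 0.012). So did Tsc1, a brake on mTOR, by 0.51 ± 0.12 (adjusted p = 0.014) and the kinase Gsk3b by 0.63 ± 0.16 (adjusted p = 0.027). The sixth was a probe set of Pik3ca. The 6 probe sets came from 6 genes, so no gene passed with more than 1. The 3 other Pik3r1 and 5 other Gsk3b probe sets tested also pointed down, without passing. Of the 2 other Tsc1 probe sets, which did not pass, 1 pointed the other way. Summed neuron markers (9 of 9 past the filter, none at 0) were also lower in these cells, 6449 to 12205 against 12821 to 27713 in CD15 negative cells, and their part was not tested. None of the 78 probe sets passed in the CD15 comparison of Math1-GFP tumours, and 8 had an unadjusted p under 0.05.

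Between models 39 of the 78 cascade probe sets passed, 31 higher and 8 lower in Math1-GFP, or 50% against 42.3% of all. The kinase Akt1 rose by 1.13 ± 0.13, the translation repressor Eif4ebp2 by 0.90 ± 0.12, the Ras activator Sos1 by 0.75 ± 0.11, the catalytic subunit Pik3ca by 0.63 ± 0.09 and Akt2 by 0.87 ± 0.13 (limma adjusted p = 1.0e-06, 4.0e-06, 1.6e-05, 2.2e-05 and 2.7e-05). For Pik3ca, 1 of its 4 other probe sets pointed the other way. Of the further binding proteins, proteases and RNA-binding proteins, 8 of 16 genes were tested with 14 probe sets, and 0 passed between CD15 fractions of either model while 1 rose and 2 fell between models, or 21.4% against 42.3% of all. These were chosen for naming after their values were seen: Stc2, an inhibitor of the protease that frees IGF from IGFBP4, rose by 0.37 ± 0.12 (adjusted p = 0.019) with 1 probe set, while its others stood at -0.34 ± 0.17 and 0.02 ± 0.19 (adjusted p = 0.10 and 0.96). Both probe sets of the vascular protein Igfbp7 fell, by 1.39 ± 0.47 and 0.30 ± 0.12 (adjusted p = 0.022 and 0.042). Of the imprinted growth genes 10 of 14 were tested with 28 probe sets. The 1 that passed in conventional CD15 cells was of Gnas, which fell by 0.53 ± 0.13 (adjusted p = 0.018), while 1 of the 2 other Gnas probe sets pointed the other way. That is 3.57% against 5.21% of all. Between models 4 probe sets rose and 6 fell, or 35.7% against 42.3% of all, and together they came from only 4 genes. Ndn, an imprinted growth suppressor, fell by 2.30 ± 0.33 in Math1-GFP (adjusted p = 1.2e-05). The 4 other Ndn probe sets tested also passed and fell, so most of the falls were of this gene. H19, the neighbour of Igf2, was not analysed here.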

How the data were processed

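Gene expression had been measured on Affymetrix arrays in 21 samples of 4 groups. The deposited intensity values are probe set signals on a linear scale, used as the authors deposited them. The values show that every array was scaled to a trimmed mean of 150.0 (2% removed at each end), and the distributions had not been equalised. The sources used here do not name the software behind them. Intensities were taken as log2(signal + 32), which makes fold changes of dim genes smaller. The 64 control probe sets and those below the 40th percentile of mean level were left out, so 27022 of 45037 were tested. A model with 4 group means (17 residual degrees of freedom) was fitted in limma 3.58.1 (R 4.3.3) with eBayes, two-sided, with Benjamini-Hochberg adjustment, after it was tested on simulated data.

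The members and lists were chosen with earlier results of these data known. All member probe sets past the filter are described, those called and the brightest of each gene by array. Other pathway genes are the 6 of smallest p per comparison, 1 probe set per gene. Same-numbered conventional arrays deviated together (correlations 0.52 to 0.71 in 5 pairs, -0.50 to 0.34 between other numbers), so the numbers in the titles were taken to pair them. The unnumbered arrays, which no label pairs, correlated at 0.67 with each other and at 0.46 and 0.35 with number 6 of the other fraction. The block fit drops the unnumbered arrays and leaves Math1-GFP unpaired. Alternatives covered normalization, pseudocount, filter, probe set choice, variance model, array weights, blocks, the sets of conventional arrays (numbers 2 to 5, unnumbered and 6) and each array left out. The random block and the fit without Math1-GFP arrays 1 and 2 were added after seeing the data.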

Additional observations from a re-analysis of the deposited data

Results flagged for a closer look

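In the Math1-GFP CD15 positive group, the Igf1 probe set 1434413_at read 16.38 on array 7 and 0.961 to 3.00 on the other 3 arrays. On the log2(signal + 32) scale, the gap to the nearest array was 0.843 of the range of the group, above Dixon's critical value of 0.829 for 4 samples. It was the only one of 48 groups so tested (12 probe sets in 4 groups) that stood apart, and chance does so in about 1 in 20 groups.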

How the results depend on the processing

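Over the 23 tested member probe sets, 3060 values under alternatives kept their direction and side of the threshold, 16 called values lost the call, 37 uncalled values gained it, 188 uncalled values changed sign and 1 called value reversed, Igfbp5 1452114_s_at between models (0.16, conventional unnumbered arrays and number 6 only). Called probe sets for CD15 in conventional tumours, 1409 as reported, were 926 with the mean of each gene's probe sets, 924 with the groups fitted alone, 4627 with a random replicate block and 0 with the unnumbered arrays and number 6 only. Members called there were 0 as reported and 1 with the replicate block, fixed or random. For CD15 in Math1-GFP tumours, 0 as reported became 30 with the larger pseudocount, 2 with a filter at the 60th percentile, 5 with the brightest probe set, 8 with the mean, 4 with the groups alone, 2 with trend and robust estimation, 131 with array weights, 157 with the replicate block, 6 on numbered arrays without it, 23 with a block for the conventional sets, 34 with conventional numbers 2 to 5 only and 1 with the unnumbered arrays and number 6 only. Between models, 11418 became 4845 genes with the brightest probe set, 5195 with the mean and 6838 with the unnumbered arrays and number 6 only. Members called between models, 6 as reported, were 3 with the brightest probe set, 1 with the mean, 11 with array weights, with the replicate block and with numbers 2 to 5 only, and 1 with the unnumbered arrays and number 6 only. That last call, of Igfbp4 1421992_a_at, was not among the 6. Leaving out 1 array at a time gave 817 to 1514, 0 to 43 and 10456 to 11758 called probe sets in the conventional CD15, Math1-GFP CD15 and model comparisons, 5 to 8 members between models and 0 in the others; the fewest for conventional CD15 came without CD15 negative array 5. The replicate block changed no call of the members in the Math1-GFP CD15 comparison or the test of its dependence on the model. Signals of a few units are near the floor, where 8 member probe sets gave no test. The cause of these changes was not tested.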

Other observations

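Igfbpl1, a secreted relative of the binding proteins known from immature neurons, read lower in the CD15 positive cells of both models without passing the test. Its probe set 1423377_at had medians of 457 in CD15 positive and 1285 in CD15 negative conventional cells, and of 518 and 1044 in Math1-GFP cells. The differences were -1.09 ± 0.44 (n = 6 and 6, limma adjusted p = 0.16) and -1.21 ± 0.51 (n = 4 and 5, adjusted p = 0.57), and the second probe set gave -0.92 ± 0.36 and -0.94 ± 0.41. Plagl1, an imprinted transcription factor, was 1.69 ± 0.34 higher in Math1-GFP with the probe set 1426208_x_at (limma adjusted p = 4.4e-04), with medians of 392 and 318 in the conventional and 2287 and 806 in the Math1-GFP groups, CD15 positive first. Of the other Plagl1 probe sets tested, 1450533_a_at rose by 0.89 ± 0.18 (adjusted p = 3.8e-04) and 1438588_at stood at 0.09 ± 0.10 (adjusted p = 0.51). Igfbpl1 and Plagl1 were chosen after their values were seen.

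Igf2os, the transcript opposite Igf2, read between 2.65 and 87.0 over all groups, and its model difference was 0.03 ± 0.25 (limma adjusted p = 0.93). A probe set listed for both Airn and Igf2r was not counted as a member, since it names more than 1 gene. It lay below the filter, at 1.35 to 22.5 over all arrays.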
